A study of Mus musculus with 10 samples.

Results

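Solute carriers (SLC) are membrane proteins that move small molecules across the plasma membrane, the inner mitochondrial membrane and the membranes of lysosomes and secretory organelles. They carry amino acids, sugars, metal ions, vitamins, nucleotides and organic anions, and a few take citrate, acetyl-CoA or fatty acids, which links them to lipid synthesis. In liver they set what the hepatocyte takes from portal blood, what it returns, and what its mitochondria exchange with the cytosol. The members described here are all genes whose single symbol in the platform's annotation starts with Slc and a digit. Where a gene had several probe sets, the one with the highest mean over all arrays stands for it, a choice that uses no comparison between groups. There were 163 such genes of 7542 genes with a single symbol, from 45 families by number. The rule also took in Slc7a6os, named for its position beside Slc7a6, and Slc9a3r2, an adaptor that binds a sodium/proton exchanger. These 2 are not transporters, which leaves 161 transporter genes.

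Mouse livers were profiled on 10 Affymetrix MG_U74Bv2 arrays, 2 in each of 5 groups, and the values are on the log2 scale. TgSREBP-1a and TgSREBP-2 mice expressed human SREBP-1a or SREBP-2 from a transgene, in the truncated form that enters the nucleus, transcription factors that switch on genes of fatty acid and cholesterol synthesis. They and their wild type littermates were males of 12 to 16 weeks, kept for 2 weeks on a diet high in protein and low in carbohydrate, which serves to drive the transgenes. Scap-/- mice lacked SCAP, the escort protein that SREBPs need for activation, through MX1-Cre, a recombinase under an interferon-inducible promoter that is not limited to hepatocytes. They and their wild type controls were males of 10 to 12 weeks on Teklad chow, all given 4 injections of polyinosinic-polycytidylic acid, and were killed 14 days later. Each group was 1 pool of RNA (20 µg) from 5 livers, hybridised to 2 arrays. All p-values, standard errors and intervals therefore rest on the spread between hybridisations of the pools, and the spread between mice is not measured.

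A gene is called higher or lower where the adjusted p of limma (Benjamini-Hochberg, over all 12411 probe sets) was under 0.05 and the change at least 1.5-fold. Changes are given as log2 differences ± standard error from that fit, with 2 arrays in each group. At these settings, and by the brightest probe set, 9 Slc genes were called in at least 1 of 5 comparisons and 154 in none. Of the 9 genes, 4 were mitochondrial carriers of the Slc25 family and 2 were zinc transporters of the Slc39 family. A total of 6 had 1 probe set, and Slc17a2 was the 1 called gene whose mean lay below the median of all probe set means (5.65), as did 62 of the 163 genes.

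Across the series, duplicate arrays correlated between 0.9871 and 0.9944, and the second TgSREBP-2 array stood nearer to wild type array 2 of the transgenic study (0.9915) than to its duplicate (0.9891). In the Scap study each array stood nearer to an array of the other group than to its duplicate. Scap-/- array 1 correlated at 0.993 and Scap-/- array 2 at 0.9892 with wild type array 2, against 0.9888 with each other. Wild type array 1 correlated at 0.9881 with Scap-/- array 1, against 0.9871 with its duplicate. The remaining pair across the groups, Scap-/- array 2 and wild type array 1, correlated at 0.9702, below the duplicates of either group. Scap, the deleted gene, was lower by 1.22 ± 0.18 in Scap-/- liver. Insig1, a reference target of SREBPs, was higher by 3.03 in TgSREBP-1a and 2.36 in TgSREBP-2 and lower by a log2 change of -2.53 in Scap-/-. Of 4 measured hepatocyte markers, 3 (C8a, C8b and Fetub) fell in TgSREBP-1a, where the list's mean level was 8.84 to 9.01, against 10.47 to 10.73 in wild type. None of the 4 was called in TgSREBP-2 or Scap-/- by limma (2 and 1 at an unadjusted p under 0.05). Of 3 measured markers of pancreatic acinar cells, 2 (Cpb1 and Cela3b) fell both in TgSREBP-1a and in Scap-/-, and 1 (Ctrc) rose in TgSREBP-2. The single measured Kupffer cell marker (Cd163) and 1 of 3 endothelial markers (Lyve1) rose in TgSREBP-1a. The single measured marker of the erythroid list, the transferrin receptor Tfrc, rose 2.83-fold in TgSREBP-2 (limma, adjusted p = 0.016) and was lower in TgSREBP-1a than in TgSREBP-2 by a log2 change of -1.38. In bulk liver, fewer cells of a type and less RNA per cell cannot be told apart, and the part of these markers in the Slc results was not tested.

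**Figure D1:**
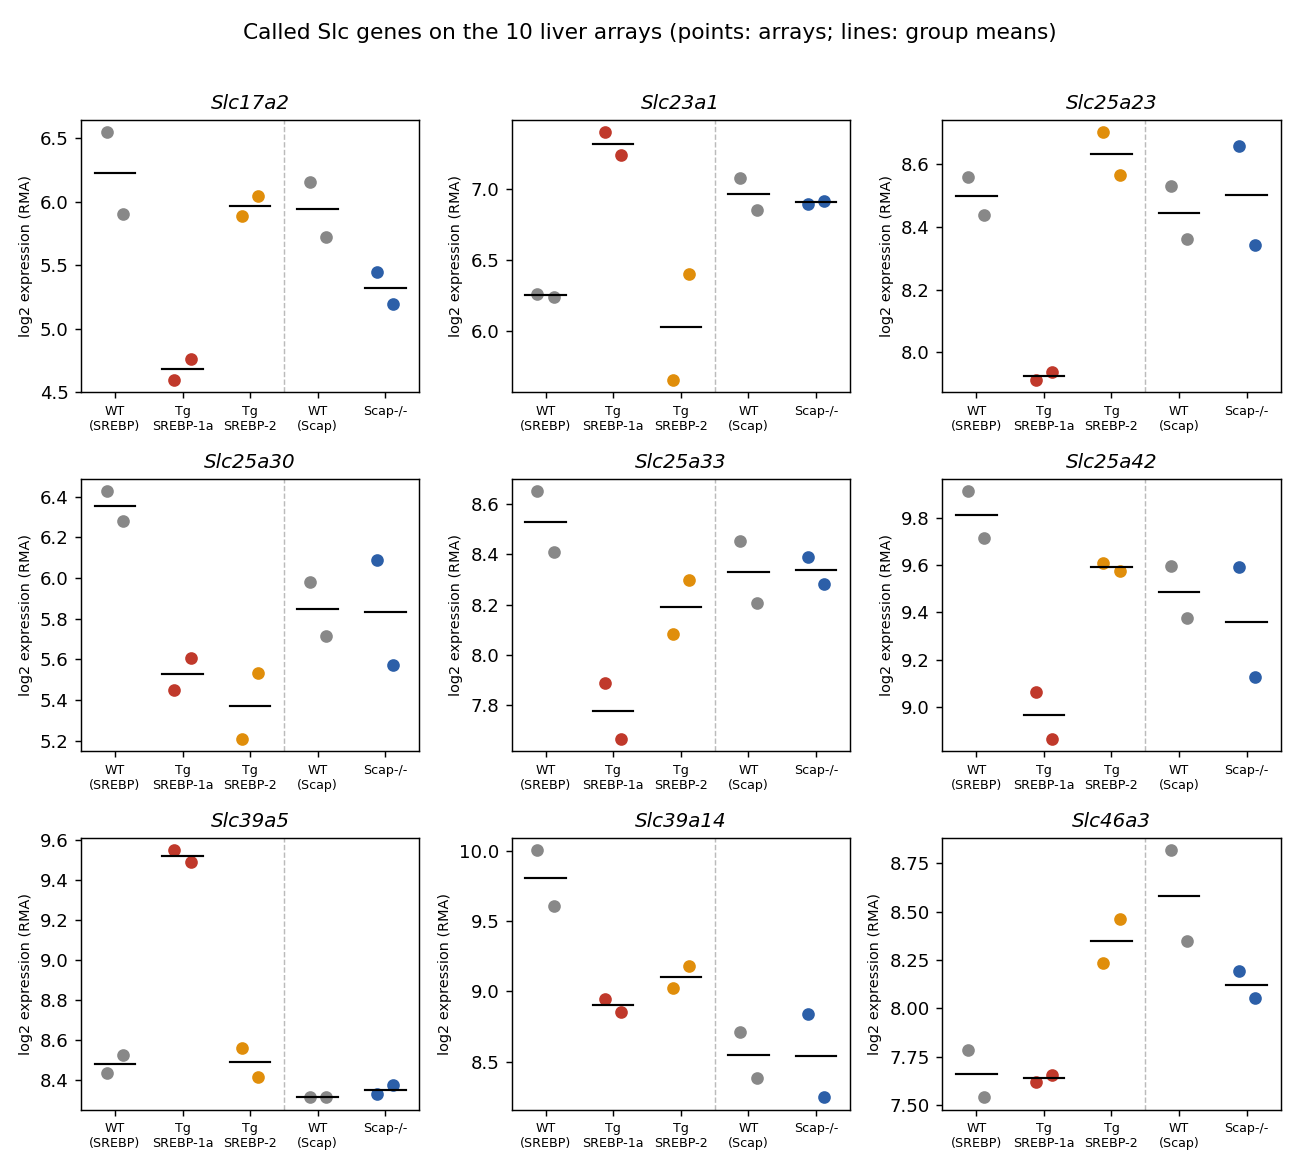
Log2 expression of the 9 called Slc genes on each of the 10 arrays (points), with the mean of each group (lines); the dashed line parts the transgenic study from the Scap study, and each panel has its own axis. Slc39a5 sits at 9.49 and 9.55 in TgSREBP-1a and at or below 8.56 on all other arrays.

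The question of which transporters respond to SREBP-1a was met by the TgSREBP-1a and wild type arrays of the transgenic study. The zinc importer Slc39a5 and the vitamin C transporter Slc23a1 rose. The organic anion and phosphate transporter Slc17a2, the mitochondrial carriers Slc25a42, Slc25a30 and Slc25a33, and the metal importer Slc39a14 fell. In all, 2 of 163 genes were called higher and 5 lower, together 4.29%. Of all probe sets 2.18% were called, 1.36% higher and 0.814% lower. The members are the brightest probe sets of their genes, while all probe sets include the dimmer ones. Here and below these shares therefore come from sets of unlike brightness. The median change of the Slc genes was -0.03 and that of all probe sets -0.02. For 136 of the 163 genes the 95% interval of the change lay wholly within 1.5-fold in either direction. These were 58 of the 62 genes below the median level and 78 of the 101 at or above it. The groups did not overlap for 77 Slc genes (47.2%) and for 42.4% of all probe sets. At an unadjusted p under 0.05 there were 21 Slc genes (12.9%) against 10.3% of all probe sets. By fold alone (at least 1.5-fold without overlap, with no p) there were 3 higher (1.84%, against 1.79% of all probe sets) and 6 lower (3.68%, against 1.15%). The share of lower calls by limma was 3.07%.

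Slc39a5 (ZIP5) takes up zinc across the basolateral membrane and is abundant in pancreas, intestine and liver. Its log2 values were 9.55 and 9.49 in TgSREBP-1a, 8.43 and 8.53 in its wild type, and 8.56 and 8.42 in TgSREBP-2. In the Scap study they were 8.33 and 8.37 in Scap-/- and 8.31 and 8.32 in wild type. The TgSREBP-1a arrays thus stood above all others, and the other 8 arrays lay close together. The rise in TgSREBP-1a was 1.04 ± 0.09 (2.06-fold; limma, adjusted p = 0.00014), and it was called without each array in turn, at 0.996 to 1.09. In TgSREBP-2 the change was 0.01, with a 95% interval from -0.20 to 0.22. Of the 3 acinar markers, 2 were called lower in TgSREBP-1a. The mean level of all 3 was 6.07 to 6.11 there and 8.84 to 9.17 in wild type. In Scap-/- 2 were also called lower, and Slc39a5 differed from wild type by 0.04. Whether acinar cells have a part in the values of Slc39a5 was not tested.

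Slc23a1 (SVCT1), which takes up ascorbate together with sodium, read 7.40 and 7.24 in TgSREBP-1a and 6.26 and 6.24 in wild type. It rose by 1.07 ± 0.19 (2.10-fold; limma, adjusted p = 0.014). The TgSREBP-2 arrays were apart from each other, at 5.65 and 6.40, and the Scap study had 6.90 and 6.92 in Scap-/- and 7.08 and 6.85 in wild type. The TgSREBP-1a level was therefore above that of both wild type pools, which themselves differed by 0.71 without passing the test (adjusted p = 0.21). Slc23a1 had 2 further, dimmer probe sets, on which the change in TgSREBP-1a was 0.18 and 0.03. With the mean of its 3 probe sets the call was lost, at 0.43. It was also lost without any 1 of the 4 arrays, at an adjusted p (limma) of 0.074 to 0.16, while the change stayed between 0.99 and 1.15.

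Slc17a2 belongs to a family that carries phosphate and organic anions such as urate. It had the largest change of any member in this comparison. It read 4.60 and 4.76 on the TgSREBP-1a arrays against 6.55 and 5.90 in wild type, 5.89 and 6.05 in TgSREBP-2, 5.45 and 5.20 in Scap-/-, and 6.16 and 5.72 in the wild type of the Scap study. Every array of the other groups was above both TgSREBP-1a arrays. The fall was 1.55 ± 0.20 as a size on the log2 scale (2.92-fold; limma, adjusted p = 0.0018) and was called without each array in turn, at -1.87 to -1.22. The Scap-/- arrays also lay below those of their wild type, by a log2 change of -0.62 that did not pass (adjusted p = 0.54).

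The Slc25 family exchanges metabolites over the inner mitochondrial membrane. In TgSREBP-1a 3 of its 27 measured genes (11.1%) were called lower by limma and 0 higher, against 0.814% and 1.36% of all probe sets. At an unadjusted p under 0.05 there were 8 (29.6%), against 10.3% of all probe sets. Slc25a42 carries coenzyme A into the matrix. It read 9.07 and 8.87 in TgSREBP-1a and 9.91 and 9.71 in wild type, a change of -0.85 ± 0.15 (adjusted p = 0.013). Slc25a33, a carrier of pyrimidine nucleotides, read 7.89 and 7.67 against 8.65 and 8.41, a change of -0.75 ± 0.13 (adjusted p = 0.012). Slc25a30, a carrier first described in kidney, read 5.45 and 5.61 against 6.43 and 6.28, a change of -0.83 ± 0.18 (adjusted p = 0.032). For each of these 3 genes both TgSREBP-1a arrays lay below both wild type arrays. The calcium-regulated ATP and phosphate carrier Slc25a23 lay just outside the limits, with a change of -0.57 (1.49-fold) at an adjusted p (limma) of 0.032. Its relative Slc25a25 changed by -0.57. The largest values in the other direction were those of Slc25a37, which brings iron into mitochondria, at 0.42, and Slc25a44, a carrier of branched-chain amino acids, at 0.38, neither of which passed. The median of the 27 carriers was -0.08. Without any 1 array the calls of Slc25a42 and Slc25a30 were lost, at an adjusted p (limma) of 0.057 to 0.16 and 0.13 to 0.30. That of Slc25a33 was lost without the first wild type array or the second TgSREBP-1a array.

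**Figure D2:**
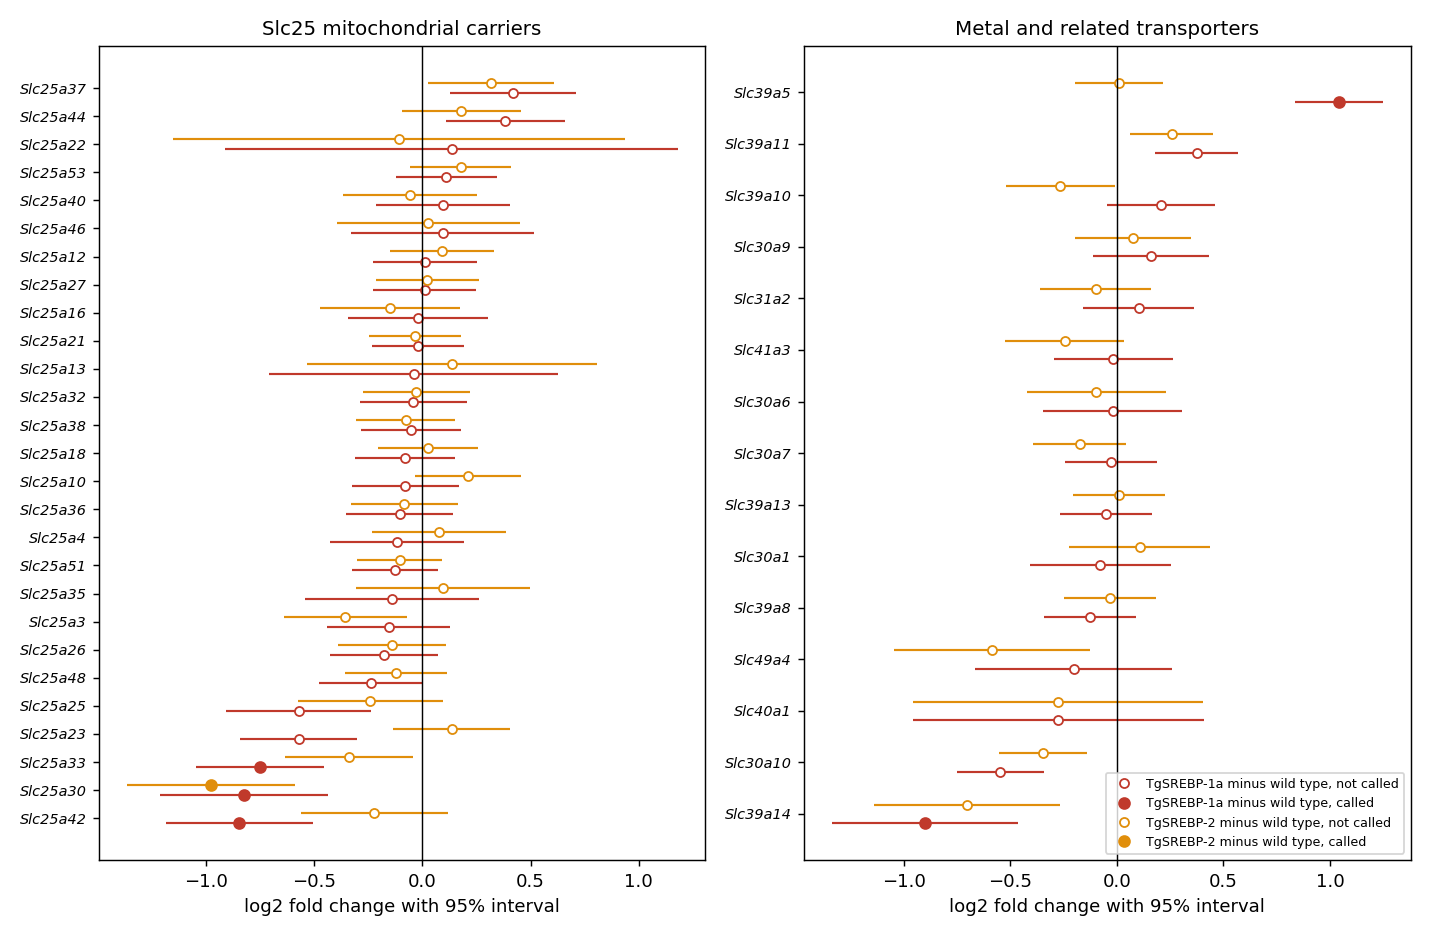
Log2 fold changes of the 27 mitochondrial carriers (left) and the 15 transporters of metals and related substrates (right) in TgSREBP-1a (red) and TgSREBP-2 (orange) against the wild type arrays that both share; points are limma estimates, lines their 95% intervals, and filled points are called. Slc25a30 is filled in both lines, at -0.83 and -0.98, and Slc39a5 only in TgSREBP-1a.

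Slc39a14 (ZIP14) imports zinc, iron and manganese and is known as a gene of the acute phase in liver. It read 8.95 and 8.86 in TgSREBP-1a, 9.02 and 9.18 in TgSREBP-2, and 10.00 and 9.60 in their wild type. In the Scap study it read 8.84 and 8.25 in Scap-/- and 8.71 and 8.39 in wild type. The wild type arrays of the transgenic study were thus the highest of all 10. The change in TgSREBP-1a was -0.90 ± 0.20 (limma, adjusted p = 0.037), and that in TgSREBP-2 was -0.70 without passing (adjusted p = 0.31). On its 2 dimmer probe sets the change in TgSREBP-1a was -0.44 and -0.19. With the mean of the 3 probe sets it was -0.51 and no longer called, and the call was also lost without any 1 of the 4 arrays (adjusted p 0.063 to 0.35). Of the 15 genes for metals and related substrates, 1 rose, 1 fell and 13 were not called in TgSREBP-1a. The calls were 13.3% of the 15, against 2.18% of all probe sets. Among those not called, the manganese exporter Slc30a10 changed by -0.55, under 1.5-fold but with an adjusted p (limma) of 0.0096. It read 5.66 and 5.63 in TgSREBP-1a against 6.17 and 6.21 in wild type. Slc39a11 changed by 0.38 and the iron exporter Slc40a1 by -0.27.

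The choline transporter Slc44a1 was not called by its brighter probe set, which read 6.17 and 6.10 in TgSREBP-1a and 5.91 and 6.09 in wild type. Its second probe set read 6.63 and 6.37 in TgSREBP-1a, 5.21 and 5.06 in wild type and 5.15 and 5.25 in TgSREBP-2, and between 5.03 and 5.35 in the Scap study. On that probe set TgSREBP-1a was above all other arrays. The change was 1.36 against wild type (limma, adjusted p = 0.00011) and 1.30 against TgSREBP-2 (adjusted p = 3e-04), while the brighter probe set gave 0.13 and 0.21. With the mean of both probe sets Slc44a1 was called higher in both comparisons. Of the 55 probe sets of members that were not the brightest, it was the only 1 called in TgSREBP-1a.

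In the other classes no gene passed in TgSREBP-1a. Of 29 genes in the amino acid families 0 were called by limma and 0 had an unadjusted p under 0.05, against 10.3% of all probe sets. Their changes lay between -0.26 and 0.14. Of 20 transporters in the sugar families 0 were called (2 at an unadjusted p under 0.05), with changes between -0.28 and 0.20. Of 18 genes for inorganic ions 0 were called (1 unadjusted), and the bicarbonate transporter Slc4a4 stood lowest at -0.60 (adjusted p = 0.33). Of 15 genes for nucleosides and nucleotide sugars 0 were called (3 unadjusted), and Slc35f5 stood highest at 0.59 (adjusted p = 0.33). Of 12 genes for carboxylates and acetyl-CoA 0 were called (1 unadjusted). These include the plasma membrane citrate transporter Slc13a5, at -0.01, and Slc33a1, which moves acetyl-CoA into the endoplasmic reticulum, at -0.12. The mean level of Slc33a1 was 4.05, below the median of all probe set means (5.65), where little can be seen of changes.

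**Figure D3:**
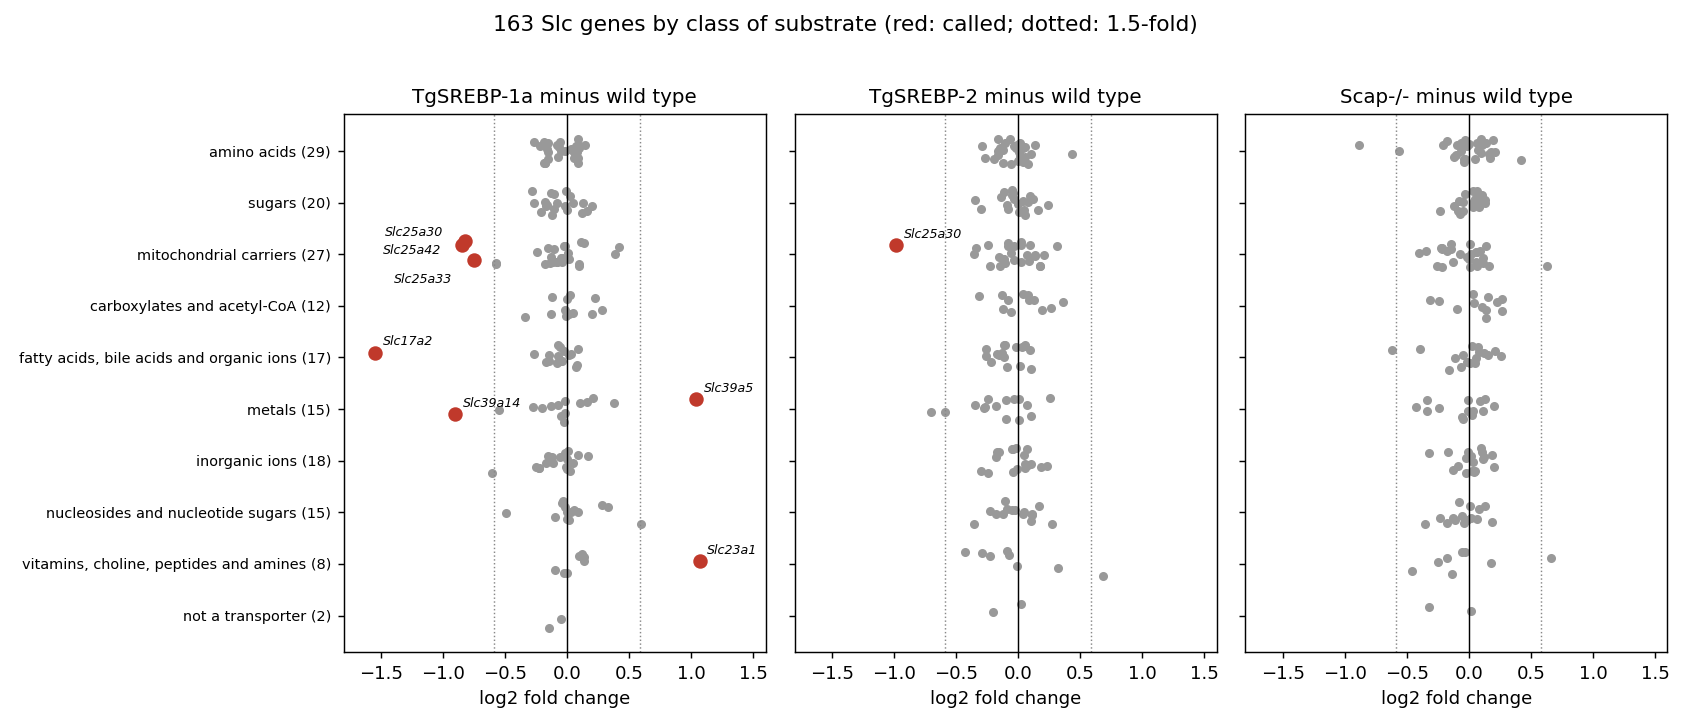
Log2 fold changes of all 163 genes, grouped by the class of substrate of their family (number of genes in brackets), in TgSREBP-1a, TgSREBP-2 and Scap-/- against the wild type of each study; red points are called and dotted lines mark 1.5-fold. There are 7 red points in TgSREBP-1a, 1 in TgSREBP-2 and 0 in Scap-/-.

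A separate list held 28 measured transporters of SLC type under other symbols (Slco, Mfsd, Spns and Sv2 genes, Ctns, Mpc1, Mtch1 and Rhcg). Of these, 3 rose in TgSREBP-1a, 0 fell and 25 were not called, while 1.36% of all probe sets were called higher and 0.814% lower. In that comparison 6 of the 28 had an unadjusted p (limma) under 0.05, against 10.3% of all probe sets. Mfsd2a, which takes up lysophosphatidylcholine, rose by 1.69 ± 0.14 (3.23-fold; limma, adjusted p = 7.4e-05). The lysosomal Mfsd12 rose by 0.78 ± 0.12 and the organic anion transporter Slco1a4 by 1.38 ± 0.15. Among those not called, Slco1b2 changed by -0.74 (limma, adjusted p = 0.073), with means of 3.71 and 4.45, and Slco2b1 by -0.43. Mfsd13a changed by 0.51 (limma, adjusted p = 0.019) and Rhcg by 0.45 (adjusted p = 0.038), both under 1.5-fold. None of the 28 was called in TgSREBP-2 or in Scap-/- by limma. At an unadjusted p under 0.05 there were 3 and 6, against 7.92% and 7.74% of all probe sets. Mfsd2a changed by 0.65 in TgSREBP-2 and by 0.42 in Scap-/-. Its mean was 7.85 in the wild type of the transgenic study and 6.83 in that of the Scap study. Between these wild type pools 1 of the 28 was called higher and 0 lower, against 0.153% and 0.355% of all probe sets. At an unadjusted p (limma) under 0.05 there were 11, against 9.7%. The median of the list in TgSREBP-1a was -0.06.

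For SREBP-2 the same question gave a single call among the Slc genes. Slc25a30 fell by 0.98 ± 0.18 on the log2 scale in TgSREBP-2 (1.97-fold; limma, adjusted p = 0.041), with readings of 5.21 and 5.54 against 6.43 and 6.28 in wild type. The arrays of these groups did not overlap. In all, 1 of 163 genes (0.613%) was called lower and 0 higher, while 0.5% of all probe sets were called, 0.338% higher and 0.161% lower. At an unadjusted p under 0.05 there were 17 Slc genes (10.4%) against 7.92% of all probe sets. The median change was -0.03 in the Slc genes and -0.02 in all probe sets. The 95% interval lay within 1.5-fold for 139 genes, 58 of the 62 below the median level and 81 of the other 101. Without overlap were 69 Slc genes (42.3%) and 40% of all probe sets. By fold alone 1 was higher and 2 were lower, against 0.717% and 0.532% of all probe sets. The call of Slc25a30 was lost without either wild type array or without the first TgSREBP-2 array (adjusted p 0.21 to 0.44), and the change stayed between -1.14 and -0.82. Both transgenic lines were set against the same wild type arrays, so the fall of Slc25a30 in both is not seen in independent controls. In the Scap study it read 6.09 and 5.57 in Scap-/- and 5.98 and 5.72 in wild type, between the levels of the transgenic lines and of their wild type apart from the second Scap-/- array, which lay within the range of the lines.

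Further members without overlap between TgSREBP-2 and wild type did not pass. Slc46a3, a lysosomal transporter from a family of folate carriers, was highest at 0.69 ± 0.16 (adjusted p = 0.14). The cationic amino acid transporter Slc7a2 had 0.44 and the dicarboxylate transporter Slc13a3 0.36. Slc14a1, a urea transporter, had 0.32 and Slc25a37 0.32. On their dimmer probe sets Slc14a1 gave 0.09 and -0.24, and Slc25a37 gave 0.08. On the lower side, Slc49a4 had -0.58, the mitochondrial phosphate carrier Slc25a3 -0.36 and the nucleotide sugar transporter Slc35b3 -0.35. The dimmer probe sets of Slc49a4 gave -0.32 and -0.10. Slc25a3 had a mean level of 4.94, below the median of all probe set means (5.65). Of 27 mitochondrial carriers 1 (3.7%) fell and 26 were not called in TgSREBP-2, against 0.161% of all probe sets called lower. Of 15 genes for metals and related substrates 0 were called by limma. At an unadjusted p under 0.05 there were 5 (33.3%), against 7.92% of all probe sets.

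In Scap-/- liver 0 of 163 Slc genes were called by limma in either direction, against 0.274% of all probe sets (0.0161% higher and 0.258% lower). At an unadjusted p under 0.05 there were 17 Slc genes (10.4%) against 7.74% of all probe sets, and 54 (33.1%) against 34.4% were without overlap. By fold alone 2 were lower and 0 higher, against 0.935% and 0.0886% of all probe sets. The 95% interval of the change lay within 1.5-fold for 140 of the 163 genes, 57 of the 62 below the median level and 83 of the other 101. The median change was 0.01 in the Slc genes and 0.02 in all probe sets. Duplicates of the Slc genes differed with an SD of 0.25 in Scap-/- and 0.29 in its wild type, wider than the 0.18 of the wild type and of the TgSREBP-1a pool in the transgenic study. The fit shares 1 estimate of the spread per probe set over all groups.

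The lowest value in Scap-/- belonged to Slc38a4, a sodium-coupled transporter of neutral amino acids typical of liver. It read 7.75 and 6.97 in Scap-/- and 8.72 and 7.77 in wild type, and the change was -0.88 ± 0.31 (limma, adjusted p = 0.59). The groups did not overlap, with the higher Scap-/- array just below the lower wild type array, and the interval ran from -1.57 to -0.20. Slc17a2 was next at -0.62, the 1 gene that lay below its wild type by 1.5-fold without overlap both here and in TgSREBP-1a. Slc7a2 changed by -0.56, Slc46a3 by -0.46 and the zinc exporter Slc30a1 by -0.42. Among genes without overlap, the highest values were those of the carboxylate transporters Slc13a3 and Slc13a5, both 0.27, followed by the organic anion transporter Slc22a13 at 0.26. None of these passed. A gene called in a transgenic line and in Scap-/- in opposite directions was not found among the Slc genes, by limma calls or by fold alone. Since no Slc gene was called in Scap-/-, that count says little.

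A direct comparison of the transgenic lines tested whether their pools differed beyond the spread between hybridisations. Of 163 genes, 5 differed, 2 higher in TgSREBP-1a and 3 lower, together 3.07%, against 1.86% of all probe sets (1.18% higher and 0.677% lower). Without overlap were 77 genes (47.2%), against 46.1% of all probe sets. By fold alone 2 were higher and 4 lower, against 1.83% and 1.1%. At an unadjusted p under 0.05 there were 22 of the 163 genes, against 14.7% of all probe sets. The difference for Slc23a1 was 1.29 ± 0.19 (limma, adjusted p = 0.0057), or 2.45-fold. That for Slc39a5 was 1.03 ± 0.09 (adjusted p = 3e-04), or 2.05-fold. Slc17a2 was lower there by a log2 change of -1.29 ± 0.20 (adjusted p = 0.0078), Slc46a3 by -0.71 ± 0.16 (adjusted p = 0.044) and Slc25a23 by -0.71 ± 0.12 (adjusted p = 0.012). Slc25a23 read 7.91 and 7.94 in TgSREBP-1a, 8.70 and 8.56 with the SREBP-2 transgene, and 8.56 and 8.44 without a transgene, so that TgSREBP-1a was the group apart. On its 2 dimmer probe sets the difference was -0.32 and 0.20, and with the mean of the 3 the call was lost, at -0.28. For Slc23a1 the 2 dimmer probe sets differed by 0.06 and -0.11, and with the mean of the 3 its call was lost too, at 0.41. It was also lost without the first TgSREBP-1a array (adjusted p 0.087). Slc46a3 read 7.62 and 7.66 in TgSREBP-1a, 8.24 and 8.46 with the SREBP-2 transgene, and 7.78 and 7.54 without a transgene. Within this study TgSREBP-2 was thus the group apart, though its change from wild type was not called (limma, adjusted p = 0.14). Its values lay within the range of the Scap study, with 8.19 and 8.05 in Scap-/- and 8.82 and 8.35 in wild type.

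Several genes called in TgSREBP-1a could not be shown to differ between the lines. For Slc25a30 the difference was 0.15 with an interval from -0.23 to 0.54, and for Slc39a14 it was -0.20 with an interval from -0.63 to 0.24. Slc25a42 was lower in TgSREBP-1a by a log2 change of -0.62 (adjusted p = 0.074) and Slc25a33 by -0.41 (adjusted p = 0.19). Of the 5 differences, only that of Slc39a5 was called without each of the 4 arrays in turn. The count of 5 became 1 when array 1 of TgSREBP-1a was left out, 2 when its array 2 was, and 2 when array 1 of TgSREBP-2 was. When array 2 of TgSREBP-2 was left out it was again 5, of which 4 were among the original ones.

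The wild type pools show how far Slc genes differ between the studies with no transgene or knockout, across diet, age, injections and breeding. Slc39a14 stood 1.25 ± 0.20 higher in the transgenic study's wild type (limma, adjusted p = 0.023), or 2.38-fold. Slc46a3 was lower there by a log2 change of -0.92 ± 0.16 (adjusted p = 0.031), with 7.78 and 7.54 against 8.82 and 8.35. These were 2 of 163 genes (1.23%), against 0.508% of all probe sets (0.153% higher and 0.355% lower). Without overlap were 78 genes (47.9%) and 42% of all probe sets, and at an unadjusted p under 0.05 there were 24 (14.7%) and 9.7%. By fold alone 3 were higher and 4 lower, against 0.395% and 1.21%. Diet, age, injections, breeding, any other difference between the studies, and the spread between mice of single pools cannot be told apart here. Both genes are also among those named in the transgenic lines, where Slc39a14 lay nearer to the level of the other wild type pool in both lines and Slc46a3 in TgSREBP-2. On its other probe sets Slc39a14 differed by 0.40 and 0.14. Both calls ended with only the 4 wild type arrays in the fit (adjusted p 0.10 and 0.22), and each was lost without either array of the transgenic study's pool.

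Other members without overlap between the wild type pools did not pass. Slc7a2 was higher in the transgenic study by 0.62, the glutamate transporter Slc1a2 by 0.59 and the mitochondrial sodium/calcium exchanger Slc8b1 by 0.58. Slc16a12 was lower by a log2 change of -0.75 and Slc40a1 by -0.70. Slc4a4 was higher by 0.51 without passing, and of its 2 dimmer probe sets 1 was called, at 0.75 (limma, adjusted p = 0.023), and the other gave 0.35.

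Of 26 SLC genes listed for a well known part in hepatocytes, 15 were measured here. In TgSREBP-1a 1 rose (Slc23a1), 1 fell (Slc39a14) and 13 were not called, while 2.18% of all probe sets were called. In TgSREBP-2 and Scap-/- 0 of the 15 were called by limma, against 0.5% and 0.274% of all probe sets. At an unadjusted p under 0.05 there were 2 and 6, against 7.92% and 7.74%. Lower among the 6 in Scap-/- were Slc38a4 (-0.88), Slc7a2 (-0.56), Slc47a1 (-0.40), Slc30a10 (-0.24) and Slc37a4. Slc13a5 (0.27) was higher. The median of the 15 in Scap-/- was -0.16, against 0.02 for all probe sets. The aspartate/glutamate carrier Slc25a13, part of the malate shuttle, changed by -0.04, 0.14 and -0.26 in TgSREBP-1a, TgSREBP-2 and Scap-/-. The dicarboxylate carrier Slc25a10 changed by -0.08, 0.21 and 0.06. Slc37a4, which brings glucose 6-phosphate to the glucose-6-phosphatase, changed by -0.28, -0.05 and -0.23. Its mean level was 3.76 and that of Slc25a10 5.49, below the median of all probe set means (5.65). Little can be seen of changes in Slc37a4 at that level. The glutamine transporter Slc38a3 changed by -0.17, -0.26 and -0.09.

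**Figure D4:**
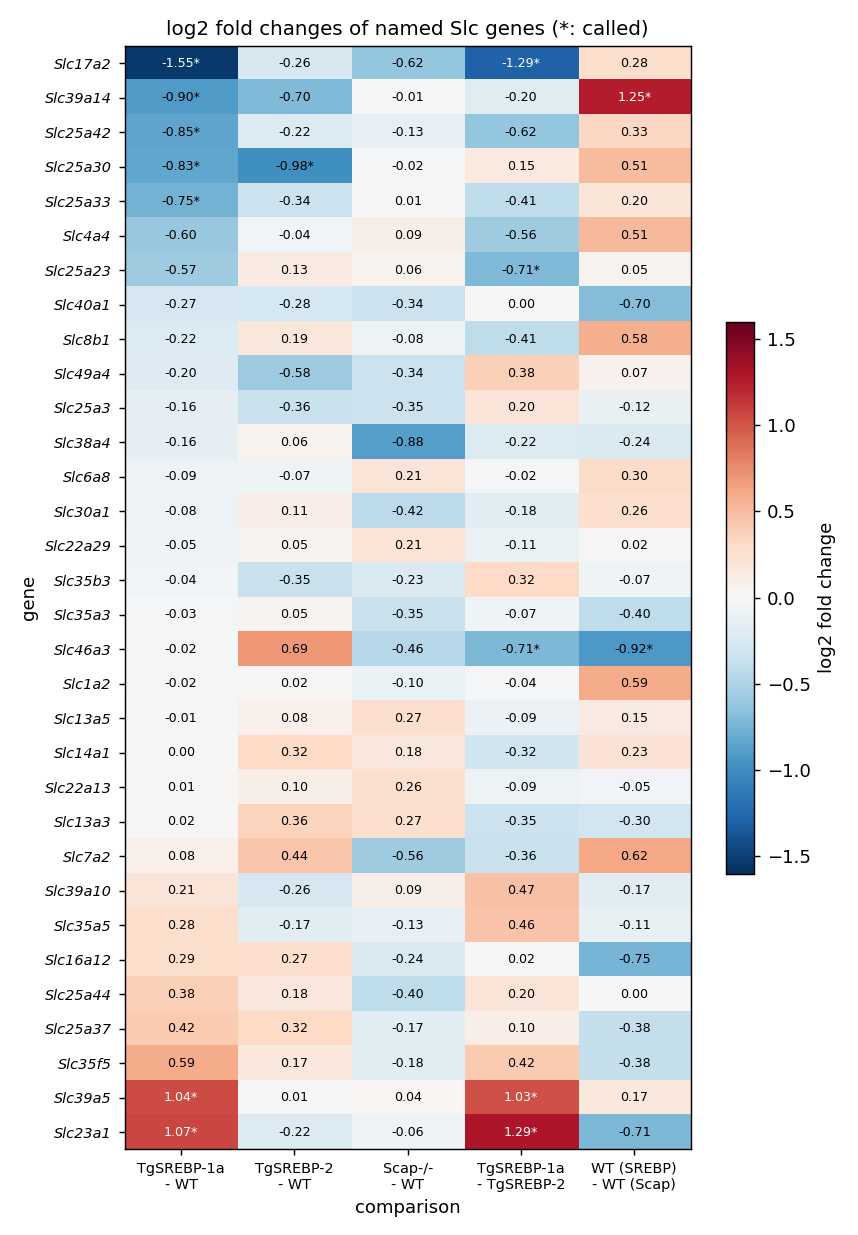
Log2 fold changes of the Slc genes called in a comparison or among the 5 largest rises or falls without overlap, in all 5 comparisons, ordered by the change in TgSREBP-1a; red is higher and blue lower in the first named group, and an asterisk marks a call. The column of Scap-/- holds no asterisk.

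Because SREBPs bind promoters, the start regions of the called genes were read from RefSeq (GRCm38.p6), as windows from 250 bases before to 50 after each start site. Of the 9 called genes, 7 had a window (9 windows). The letters TCACNCCAC, a form of the sterol regulatory element, were searched on both strands. They occurred in 0 of these 9 windows, in 2 of 164 windows of all Slc members (1.22%) and in 1.24% of 32851 windows of all genes. The E-box CACGTG, which SREBPs can also bind, reads the same on both strands. It occurred in 2 of the 9 windows and in 25 of the 164 (15.2%), against 7.15% of all windows. The windows with it belong to Slc25a33 and Slc17a2, which both fell in TgSREBP-1a, and are shown with the E-box in capitals. The stretch of Slc25a33 lies on chromosome 4 (chr4:149774268-149774302, minus strand), with the motif starting 8 bases before the start site. That of Slc17a2 lies on chromosome 13 (chr13:23806961-23806993, plus strand), with the motif starting 5 bases before it.
Slc25a33: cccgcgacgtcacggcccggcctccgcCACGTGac
Slc17a2: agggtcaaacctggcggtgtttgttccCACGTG
For Slc39a5, whose rise was called under every alternative, the 100 bases before each of its 2 annotated start sites are shown (chr10:128401225-128401324 and chr10:128400467-128400566, minus strand), which hold neither motif.
Slc39a5, upstream start: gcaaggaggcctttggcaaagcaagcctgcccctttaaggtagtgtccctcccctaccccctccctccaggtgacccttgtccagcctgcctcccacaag
Slc39a5, downstream start: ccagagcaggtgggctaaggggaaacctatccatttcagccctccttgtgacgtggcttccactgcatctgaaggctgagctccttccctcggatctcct
A match is a description of letters and does not show binding, and a missing match says only that these letters are not in the window.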

How the data were processed

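The file holds log2 expression values, which per the submitters' processing notes the authors made with RMA (version not given in the sources used here). RMA corrects background, equalises distributions and summarises probes. Array medians were 5.625 to 5.662. No genome build was named. Of 12477 probe sets, 66 controls were left out. Symbols came from the platform annotation: 10581 probe sets had 1 symbol, 178 several and 1652 none. By Entrez ID all 163 members matched RefSeq (GRCm38.p6), with 0 symbols changed.

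The arrays of all groups entered a single limma 3.58.1 fit (R 4.3.3), in which each group had its own mean. Tests are two-sided. The number of arrays limits precision (median standard error 0.113 for members). The code was checked on simulated data. Named were all called members, the 5 largest rises and falls without overlap in each comparison, and a list of hepatocyte transporters. Of the rest, Slc25a23, Slc25a25, Slc30a10, Slc39a11 and Slc44a1, and a dimmer probe set of Slc4a4, were named after their values were seen. So were Mfsd13a, Rhcg, Slco1b2 and Slco2b1 of the separate list. Members and lists were chosen with earlier results of these data known. Alternatives were other fits, scalings, filters, probe set rules and call rules, and leaving out each array.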

Additional observations from a re-analysis of the deposited data

Results flagged for a closer look

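The pools of the transgenic lines, each set against the same wild type pool, differed for 5 Slc genes by the direct test between them (limma, called over all probe sets). Each line was 1 pool, so a difference in transgene effect and the spread between mice cannot be told apart. The log2 change in TgSREBP-1a minus that in TgSREBP-2 was 1.29 for Slc23a1 and 1.03 for Slc39a5. On the mean of its 3 probe sets the value for Slc23a1 was 0.41 and not called. The difference was -1.29 for Slc17a2, -0.71 for Slc25a23 (-0.28 and not called on the mean of its probe sets) and -0.71 for Slc46a3. The parts of the hepatocyte and acinar markers, which also differed between the lines, were not tested.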

How the results depend on the processing

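Of 15 calls of a gene in a comparison, 0 changed direction under any alternative, and 3 were kept under every alternative: Slc39a5 in TgSREBP-1a against wild type and against TgSREBP-2, and Slc17a2 in TgSREBP-1a against wild type (which the filter on dim probe sets removes from the fit). With 1 array left out, the number of called Slc genes ranged from 2 to 3 in TgSREBP-1a (7 with all arrays), from 0 to 1 in TgSREBP-2 (1), from 1 to 5 between the lines (5) and from 0 to 1 between the wild type pools (2). The group with a lone array was then assumed to vary like the others. By fold alone there were 3 calls in TgSREBP-2, 2 in Scap-/- and 7 between the wild type pools. Between the wild type pools there were 0 with only 4 arrays in the fit and 4 with the replicate block of hybridisation numbers. With that block 8 were called in TgSREBP-1a, 1 in TgSREBP-2, 0 in Scap-/- and 6 between the lines. It added Slc35f5 in TgSREBP-1a (adjusted p = 0.0099, limma), Slc25a42 between the lines (0.0081), and Slc1a2 (0.013) and Slc7a2 (0.0077) between the wild type pools. In Scap-/- Slc38a4 came to 0.12. Slc7a2 came there to an adjusted p (limma) of 0.019, at a log2 change of -0.56 that was under 1.5-fold. Deviations of same-numbered arrays correlated at 0.34 to 0.60 in the 6 pairs of groups without TgSREBP-2 and at -0.17 to 0.11 in the 4 pairs with it. This is a hint of pairing from the data in 4 of the 5 groups. No label gives the numbers a meaning, and the fit without the block was kept. The count of genes in opposite directions in a transgenic line and Scap-/- was 0 under every alternative. It says little, since only fold alone gave any Slc calls in Scap-/-. Probe sets near background compress changes, which limits what can be seen of the 62 dimmer members.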

Other observations

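Besides the members, 4 probe sets were annotated to several genes that include an Slc gene, and so stand for no single gene. Of these, 1 was called lower in TgSREBP-1a than in wild type (log2 change -0.87) and than in TgSREBP-2 (-0.61). It was also called higher in wild type liver of the transgenic study than of the Scap study (0.98). It changed by -0.26 in TgSREBP-2 and by -0.08 in Scap-/- without a call. The other 3 were not called in any of the 5 comparisons by limma.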
